A study of Mus musculus with 8 samples.

Results

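The vacuolar ATPase subunit genes, the cathepsin genes and the Lamp genes were examined in mouse bone marrow-derived dendritic cells kept at low oxygen and treated with stem cell factor (SCF). Every gene was taken whose symbol starts with Atp6v or Atp6ap, or has the form of a cathepsin (Cts) or of Lamp1 to Lamp5, and that had a probe set carrying only that symbol. This gave 52 genes of the 22180 genes with such a probe set. They fell into 13 genes of the V1 sector of the vacuolar ATPase, 8 of its V0 sector, 3 accessory genes, 10 cysteine cathepsins, 4 aspartic and serine cathepsins, 9 placental cathepsins and 4 Lamp genes. The last, Atp6v1fnb, neighbours Atp6v1f and matches the rule by its name only. The V0 gene Atp6v0c was not analysed here.

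The cells came from female, wild-type C57BL/6 mice. Marrow was grown for 7 days in GM-CSF (20 ng/ml) at 21% oxygen, and CD11c+ cells were then isolated on magnetic beads to 98% purity. All cultures next spent 2 days at 2% oxygen with GM-CSF, so that both groups share the GM-CSF and the hypoxia. In the SCF group, SCF at 100 ng/ml was present for the last 6 hours, and the medium group received none. Experiments BC, D2, E and I each gave 1 medium array and 1 SCF array from the same batch of purified cells, which makes 4 arrays per group. The comparison asks what SCF does to the expression of these genes in hypoxic dendritic cells.

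The vacuolar ATPase is a rotary proton pump. Its cytosolic V1 sector hydrolyses ATP and its membrane V0 sector carries the protons, and the pump acidifies endosomes, lysosomes and phagosomes. Cathepsins are the proteases that work in these acidic compartments, and in dendritic cells they cut antigen and the invariant chain of MHC class II. Lamp1 and Lamp2 are heavily glycosylated proteins that line the lysosomal membrane. Many of these genes are known targets of the MiT/TFE transcription factors, among them TFEB, which bind a short E-box in lysosomal promoters.

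RefSeq promoter windows (build GRCm38.p6, from 250 bases before to 50 bases after the start of transcription) were at hand for 41 of the 52 genes, in 44 windows. The letters TCACGTGA, which read the same on both strands, occurred in the windows of 5 genes, Atp6v0d1, Atp6v0e, Atp6v1a, Ctsa and Ctsd. That is 11.4% of the 44 windows and 0.974% of all 32851 windows. The shorter TCACGTG, counted on either strand and contained in the longer form, was found in 7 windows (15.9% against 3.77%), adding Atp6v0b and Lamp1. Its core CACGTG was found in 10 windows (22.7% against 7.15%), adding Ctsf, Ctsl and Ctsll3. A match describes the letters of a window, not a bound site. The stretches around the match are shown for 5 genes, 1 or more from each family, because these are the letters the MiT/TFE factors are known to read. They are given 5′ to 3′ on the strand of the gene, up to 45 bases on each side and never past the start of transcription, with the matches in capitals.

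Atp6v1a, chr16:44139339-44139436, minus strand: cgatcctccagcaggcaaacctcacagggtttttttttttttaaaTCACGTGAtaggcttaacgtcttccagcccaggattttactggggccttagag
Atp6v0b, chr4:117887330-117887411, minus strand: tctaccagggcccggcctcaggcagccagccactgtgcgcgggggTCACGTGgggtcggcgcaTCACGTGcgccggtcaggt
Ctsa, chr2:164833715-164833772, plus strand: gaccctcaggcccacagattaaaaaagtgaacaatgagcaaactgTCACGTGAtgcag
Ctsd, chr7:142387874-142387971, minus strand: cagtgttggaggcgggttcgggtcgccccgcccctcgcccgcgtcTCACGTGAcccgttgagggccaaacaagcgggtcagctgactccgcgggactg
Lamp1, chr8:13159054-13159150, plus strand: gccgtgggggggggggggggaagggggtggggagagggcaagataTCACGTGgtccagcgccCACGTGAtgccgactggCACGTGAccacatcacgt

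The match began 132 bases before the start of transcription in Atp6v1a and 99 in Ctsd. The first of the matches began 62 bases before the start in Lamp1, 37 in Atp6v0b and 13 in Ctsa. The window of Lamp1 held 4 matches to TCACGTG or its reverse complement, and that of Atp6v0b held 2. The window of Ctsa held 2 matches to the longer TCACGTGA. The last match of Lamp1 is cut by the end of the stretch, and the second of Ctsa lies after the start of transcription and is not shown. The genes themselves lie on many chromosomes. Of the 52, 11 are on chromosome 13, where 8 placental cathepsin genes follow one another, and Ctsk and Ctss are neighbours on chromosome 3.

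Total RNA was hybridised to Affymetrix whole-transcript arrays, and levels are given as log2 of the deposited intensity. Array medians lay between 13.3 and 13.9 on the linear scale, and any pair of arrays correlated at 0.9902 to 0.9949 over all probe sets. Signal over background is unknown, so a probe set was tested if its mean log2 intensity reached 4.05, the median of all probe sets that carry a symbol. The label was checked against marker genes. All 8 markers of conventional dendritic cells that could be measured passed this filter, and Itgax, which encodes CD11c, stood at 10.08 ± 0.12 in medium and 10.02 ± 0.23 with SCF (SD, n = 4). The same was true of 7 macrophage markers and of 4 of 6 osteoclast markers, but of fewer in other lists, namely 1 of 9 neutrophil markers, 2 of 8 mast cell markers, 3 of 5 plasmacytoid dendritic cell markers and 1 of 7 NK and T cell markers. Osteoclast fusion genes were among those present, with Ocstamp at 9.59 ± 0.31 in medium. Kit, the receptor of SCF, stood at 6.74 ± 0.24 in medium and 6.71 ± 0.26 with SCF. Averaged over both arrays of an experiment, Kit read 6.88 (BC), 6.41 (D2), 6.65 (E) and 6.96 (I). The limma test for differences between experiments gave it an adjusted p of 0.0412. These are bulk samples, in which fewer cells of a type and less RNA per cell cannot be told apart.

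Of the 52 genes, 30 passed the intensity filter, with mean levels between 4.21 and 10.97, and 22 did not. The nearest gene below the filter was Atp6v1f, at 4.04, and the nearest above it was Ctsf, at 4.21. The tested genes cover most subunits of the pump. They include A, B, C, D, E, G and H subunits of V1, a, d and e subunits of V0, and both main accessory proteins. Atp6v0b, a proteolipid of the V0 ring, was also tested, whereas Atp6v0c was not analysed. Of V1 only the F subunit was not tested, and its gene Atp6v1f, at 4.04, lay just under the filter of 4.05. Since signal over background is unknown, its absence from the cells cannot be read from this. The paralogs Atp6v1b1, Atp6v1c2, Atp6v1g3, Atp6v0a4 and Atp6v0e2, known from kidney, inner ear or brain, were all below the filter, and Atp6v1b1, for example, had a mean of 3.65. Other restricted paralogs passed it, Atp6v1g2 with a mean of 5.31 and Atp6v1e2 with 4.76.

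Among the proteases the broad lysosomal enzymes passed the filter, and most enzymes known from other cell types did not. Ctsb, Ctsc, Ctsh, Ctsl, Ctso, Ctss, Ctsz, Ctsa and Ctsd were all tested. Ctsg, the neutrophil granule protease, averaged 3.30, and Ctsw, known from NK and cytotoxic T cells, averaged 3.33. None of the 9 placental cathepsins passed. Of the Lamp genes, Lamp1 and Lamp2 passed. Lamp3, the DC-LAMP of maturing dendritic cells, lay between 3.05 and 3.23 in medium and between 3.02 and 3.08 with SCF. Lamp5 ranged from 3.48 to 3.68 in medium and from 3.42 to 3.57 with SCF. Both stayed below the filter on every array, so no change of either can be read from these arrays, although all 8 of the other markers of mature dendritic cells passed it.

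**Figure D1:**
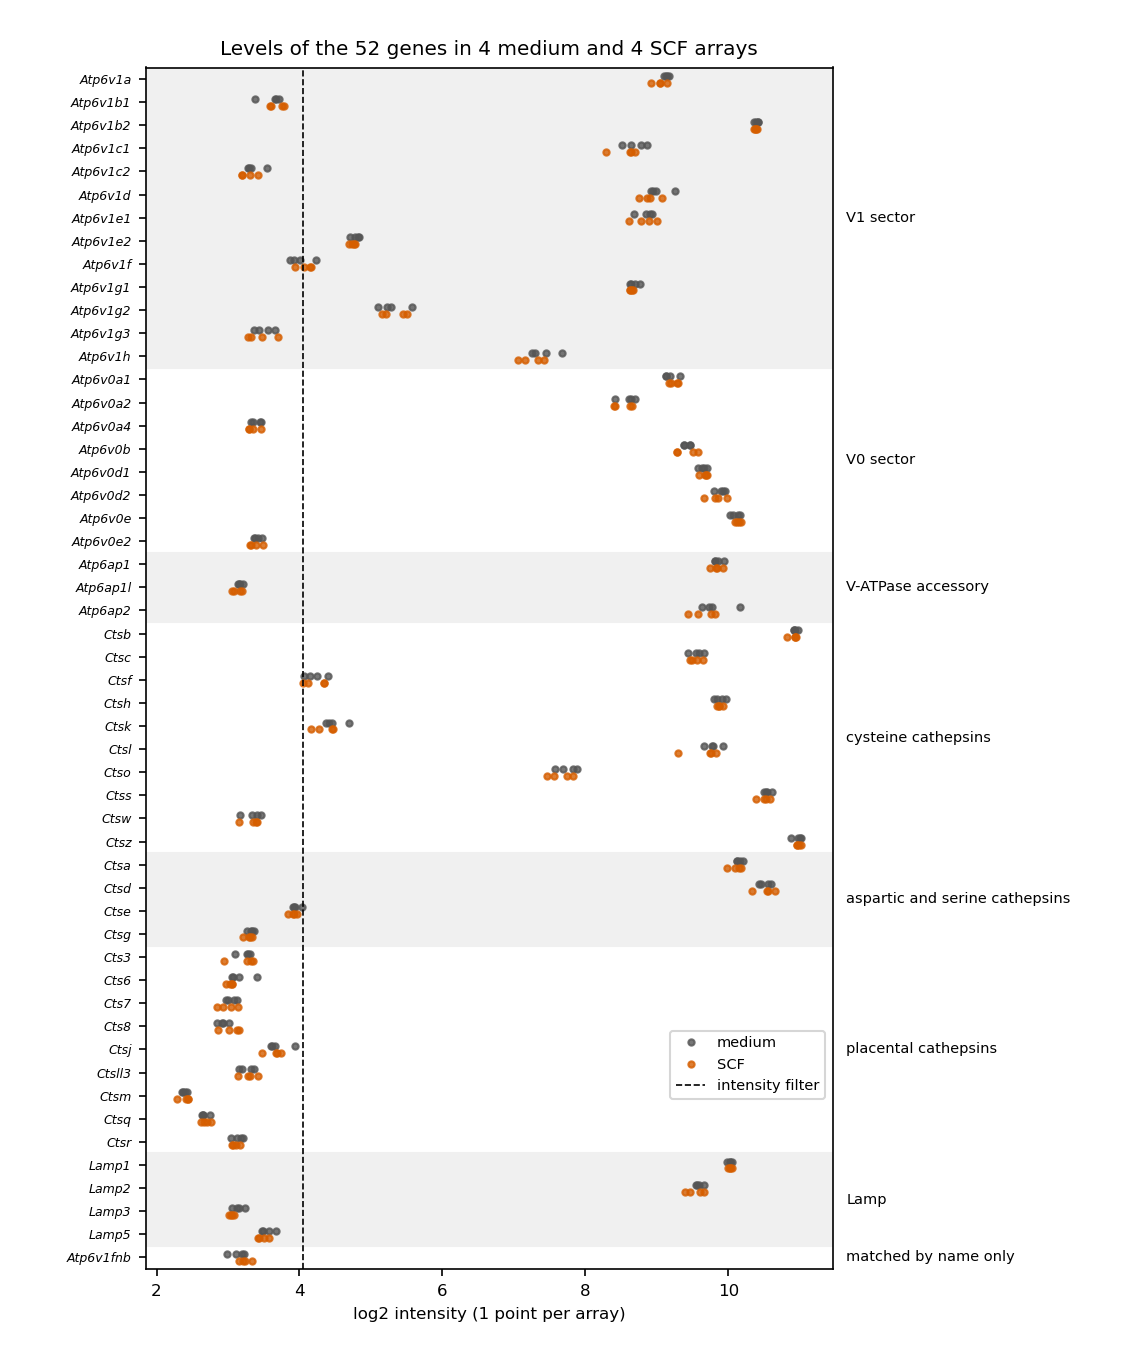
Log2 intensity (x axis) of the 52 genes (y axis, grouped by role) on the 4 medium and 4 SCF arrays, 1 point per array, with the filter at 4.05 as a dashed line. The 30 tested genes lie to the right of the line with their medium and SCF points overlapping, and all 9 placental cathepsins lie to the left.

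SCF changed none of these genes beyond the error of 4 paired experiments. With limma, pairing the arrays by experiment and adjusting over 12668 probe sets, 0 of 30 tested genes passed an adjusted p of 0.05, against a background of 0% of all probe sets, and the smallest adjusted p was 0.945. The precision was high enough to bound the changes. The 95% interval of the fold change lay within 1.5-fold for all 30 genes, as it did for 12624 of all 12668 tested probe sets. Its limits over the 30 genes ran from 0.785 to 1.17 of the medium level. The absolute log2 difference was under 0.1 in 24 genes, and the share over all probe sets was not computed.

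At an unadjusted p under 0.05 there were 4 genes, Atp6v1h, Atp6v1d, Atp6v1c1 and Atp6ap2, all with lower values in SCF. All belong to the proton pump. Over all probe sets, 4.21% reached that level in either direction and 2.26% with lower values in SCF. Values below medium in all 4 experiments were seen in 6 genes, Atp6v1h, Atp6v1d, Atp6v1c1, Ctsl, Ctso and Ctss, and no tested gene was above medium in all 4. The background was 6.44% for lower in all 4 and 12.9% for the same sign in either direction. The fitted difference was below 0 in 23 genes and above 0 in 7, with a median of -0.038, against a median of 0.00077 and 50.5% above 0 over all probe sets. The number above 0 was 4 of 30 without experiment D2 and 12 of 31 without experiment I. It was 4 of 30 after array medians were equalized, which moved the median of all probe sets to -0.018. Without experiment BC the median of the 30 genes was -0.016. No gene reached an unadjusted p under 0.05 without BC, and without D2, E or I there were 1, 2 and 3.

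**Figure D2:**
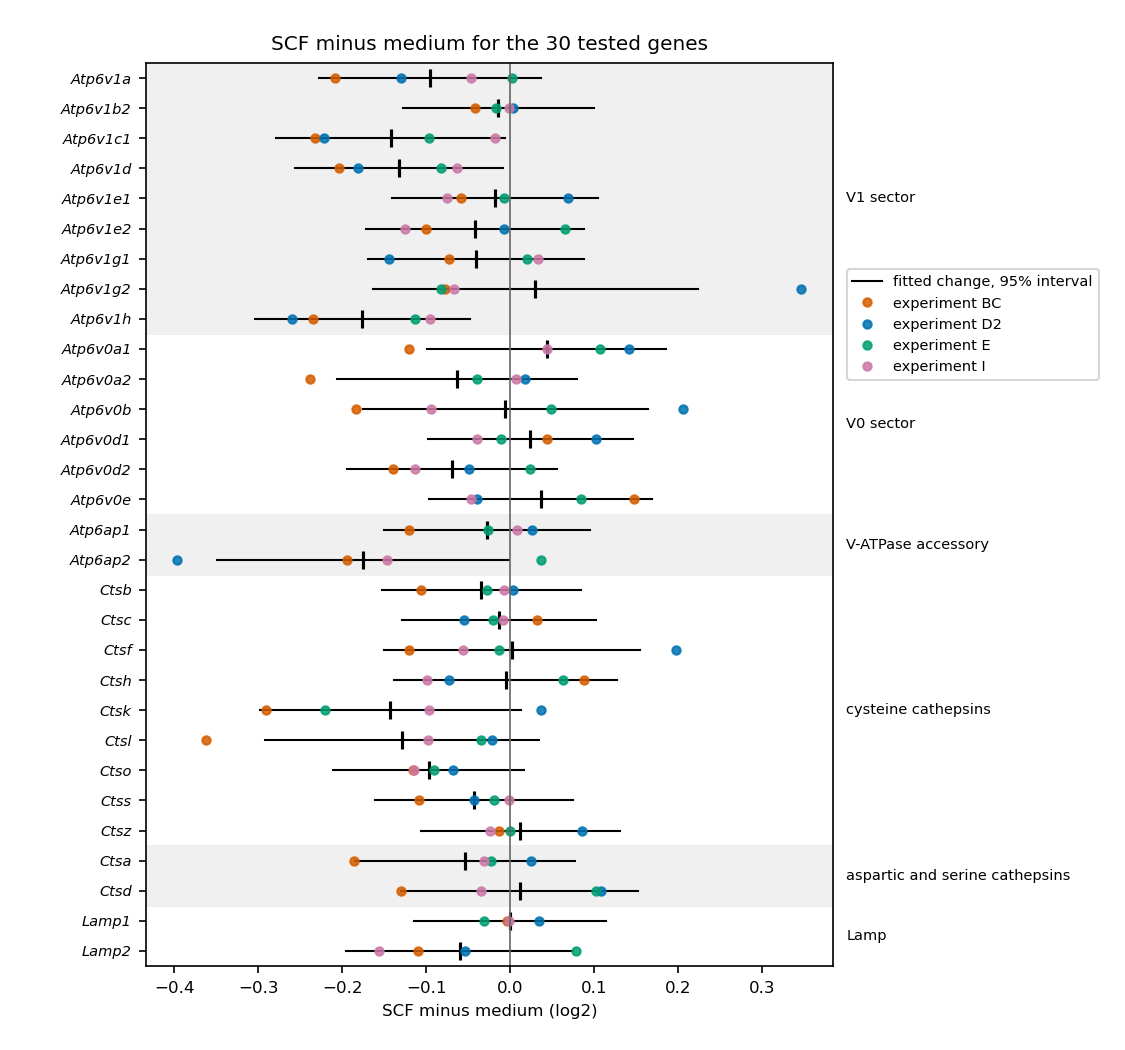
SCF minus medium (log2, x axis) for the 30 tested genes (y axis, grouped by role). Coloured points are the 4 experiments, the black tick is the fitted change and the line its 95% interval. Most ticks lie left of 0 and within 0.18 of it, and the lines of Atp6v1h, Atp6v1d and Atp6v1c1 end below 0 before adjustment, while that of Atp6ap2 reaches almost to 0.

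In the V1 sector, 8 of 9 tested genes were below 0, with a median of -0.042, and none passed the adjusted test. With the mean of all probe sets of a gene in place of the brightest, 6 of 9 were below 0. Atp6v1h encodes the H subunit, which governs the coupling of ATP hydrolysis to the pump. In medium its log2 intensity was 7.29 (BC), 7.68 (D2), 7.45 (E) and 7.25 (I), with a mean of 7.42 ± 0.19 (SD, n = 4). With SCF it was 7.06, 7.42, 7.34 and 7.16 in the same order (7.24 ± 0.16). Each SCF array was lower than the medium array of its own experiment, yet the groups overlapped, since the SCF value of D2 exceeded the medium values of BC and I. The difference was -0.18 (SE 0.05), a fold change of 0.885, with a limma adjusted p of 0.945 and an unadjusted p of 0.0139.

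Atp6v1d encodes the D subunit of the central rotor shaft. Its medium values were 8.95, 9.26, 8.99 and 8.92 in BC, D2, E and I, and its SCF values were 8.74, 9.08, 8.91 and 8.86. The SCF value was lower in each experiment, by 0.06 to 0.20, within overlapping groups. The fitted difference was -0.13 (SE 0.05), with a limma adjusted p of 0.945.

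Atp6v1c1 encodes the C subunit, which links V1 to V0 and is released when the pump comes apart. It read 8.52, 8.86, 8.78 and 8.64 in medium and 8.28, 8.64, 8.69 and 8.62 with SCF. The SCF array of BC stood apart below the others, and the SCF minus medium difference shrank from -0.23 in BC and -0.22 in D2 to -0.10 in E and -0.02 in I. The fitted difference was -0.14 (SE 0.06), with a limma adjusted p of 0.945.

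The catalytic subunits differed less. Atp6v1a, the ATP-hydrolysing A subunit, averaged 9.13 ± 0.03 in medium and 9.04 ± 0.09 with SCF, with a difference of -0.10 (SE 0.06) and an adjusted p of 0.945. Its B partner Atp6v1b2 averaged 10.40 ± 0.03 and 10.38 ± 0.02. A second, dimmer Atp6v1b2 probe set, with a mean of 7.33, differed by 0.077, against -0.014 in the brighter one, so the probe sets of that gene did not share a sign. Atp6v1g2, best known from neurons, was the only one of the 9 tested V1 genes above 0. Its difference was 0.35 in D2 and between -0.08 and -0.07 in the other experiments.

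The V0 sector showed no common sign, with 3 of 6 tested genes below 0 and a median of 0.0090, which became -0.010 after equalizing array medians. Atp6v0d1, the ubiquitous d subunit, read 9.65, 9.57, 9.69 and 9.63 in medium and 9.70, 9.68, 9.68 and 9.59 with SCF. Atp6v0d2, the d subunit of osteoclasts and macrophages, read 9.79, 9.90, 9.96 and 9.93 in medium and 9.66, 9.85, 9.98 and 9.81 with SCF. The groups overlapped for both, and the SCF differences were 0.02 (SE 0.05) for Atp6v0d1 and -0.07 (SE 0.05) for Atp6v0d2. Of the a subunits, which steer the pump to its membrane, Atp6v0a1 differed by 0.04 (SE 0.06) and Atp6v0a2 by -0.06 (SE 0.06). Atp6v0a2 was low in the SCF array of BC, by 0.24, and nearly level elsewhere. The small e subunit Atp6v0e differed by 0.04 (SE 0.06). The limma adjusted p-values of these 5 genes lay between 0.945 and 0.978.

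The accessory gene Atp6ap2 encodes the prorenin receptor, a membrane protein needed for pump assembly. It read 9.63, 10.16, 9.78 and 9.72 in medium and 9.44, 9.76, 9.81 and 9.58 with SCF. The medium array of D2 was high, experiment E went the other way, and the groups overlapped. The fitted difference was -0.18 (SE 0.07), a fold change of 0.886, with an adjusted p of 0.945 by limma, and it was -0.10 without D2. The other accessory gene, Atp6ap1, encodes a subunit found within V0. It averaged 9.86 ± 0.06 in medium and 9.83 ± 0.07 with SCF, a difference of -0.03 (SE 0.05).

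Of the 9 tested cysteine cathepsins, 7 were below 0, with a median of -0.035. After equalizing the array medians, 9 of 9 were below 0, while the median of all probe sets moved to -0.018. Ctsl, an endoprotease of lysosomal protein turnover, read 9.66, 9.77, 9.79 and 9.93 in medium and 9.30, 9.75, 9.75 and 9.83 with SCF. The SCF array of BC was well below the other 7, whereas the remaining SCF arrays were at most 0.10 below their medium arrays. The fitted difference was -0.13 (SE 0.07, limma adjusted p = 0.945), and it was -0.05 without BC.

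Ctss, the main protease of invariant chain processing in dendritic cells, read 10.49, 10.54, 10.61 and 10.53 in medium and 10.38, 10.50, 10.59 and 10.53 with SCF. In 3 experiments the SCF and medium values lay within 0.04 of each other, and the SCF array of BC was 0.11 below its medium array. Its fitted difference was -0.04 (SE 0.05), with a 95% interval from -0.16 to 0.07 on the log2 scale. Ctsb, a broad endopeptidase and exopeptidase, averaged 10.94 ± 0.03 in medium and 10.90 ± 0.06 with SCF, a difference of -0.03 (SE 0.05).

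Ctso, a protease whose substrates are little known, differed evenly across the experiments, by -0.12 (BC), -0.07 (D2), -0.09 (E) and -0.11 (I). It averaged 7.74 ± 0.14 in medium and 7.65 ± 0.16 with SCF, a spread between experiments that the pairing takes out. The fitted difference was -0.10 (SE 0.05), with a limma adjusted p of 0.945. Ctsk, the collagen-degrading protease of osteoclasts, lay close to the filter, at 4.48 ± 0.14 in medium and 4.34 ± 0.15 with SCF. Its SCF value was below medium in 3 experiments and above it in D2, with a fitted difference of -0.14 (SE 0.07) and an adjusted p of 0.945.

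The other tested V1 genes and cysteine cathepsins were nearly level. The stalk subunits Atp6v1e1, Atp6v1e2 and Atp6v1g1 differed by -0.02 to -0.04 (SE 0.05 to 0.06), although the dimmer probe sets of Atp6v1g1 differed by 0.032 and 0.056. Ctsc, Ctsh, Ctsz and Ctsf differed by -0.01 to 0.01 (SE 0.05 to 0.07), with adjusted p-values of 0.989 or above. Ctsh is an aminopeptidase and Ctsz a carboxypeptidase, both of the lysosome.

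Ctsd, the aspartic protease that is abundant in lysosomes, read 10.46, 10.43, 10.55 and 10.59 in medium and 10.33, 10.54, 10.65 and 10.56 with SCF. SCF was higher in D2 and E and lower in BC and I, and the fitted difference of 0.01 (SE 0.06) turned to -0.008 after equalizing array medians. Ctsa, the serine carboxypeptidase that also protects lysosomal glycosidases, averaged 10.15 ± 0.04 in medium and 10.10 ± 0.08 with SCF, a difference of -0.05 (SE 0.06).

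Lamp1 was level across the arrays. It read 10.02, 9.98, 10.02 and 10.05 in medium and 10.02, 10.02, 9.99 and 10.05 with SCF, and its 95% interval ran from -0.11 to 0.11 around a difference of 0.00. Lamp2, which also serves chaperone-mediated autophagy, read 9.57, 9.65, 9.58 and 9.54 in medium and 9.46, 9.60, 9.66 and 9.39 with SCF. Its groups overlapped, and the difference of -0.06 (SE 0.06) had a limma adjusted p of 0.946.

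The 7 genes whose windows hold TCACGTG had SCF differences between -0.10 (Atp6v1a) and 0.04 (Atp6v0e), and none reached an unadjusted p under 0.05. Atp6v1h and Atp6v1c1, which did reach it, had no window at hand and could not enter this group. Genes with and without the letters can therefore not be compared here. The difference of Atp6v0b, a proteolipid of the V0 ring, was -0.01 (SE 0.07), with single experiments from -0.18 in BC to 0.21 in D2.

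The excess of values below 0 came unevenly from the experiments. In BC 26 of the 30 genes were lower with SCF (86.7%), and in I again 26, whereas D2 had 15 (50%) and E had 18 (60%). Over all probe sets these shares were 52.1% (BC), 48.7% (D2), 49.8% (E) and 48.3% (I). The median difference of the 30 genes was -0.12 for BC, -0.002 for D2, -0.02 for E and -0.05 for I. All 9 tested V1 genes were lower in BC, against 6 each in D2 and E and 8 in I.

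Lists of cell type markers differed in how they moved across the same experiments. The median difference of the 7 macrophage markers was -0.26 for BC, 0.09 for D2, -0.006 for E and -0.08 for I, and 6 of the 7 were below 0 in the fit. Their summed linear intensity ranged from 1349 to 1864 in medium and from 1284 to 1851 with SCF. The 4 tested osteoclast markers were all below 0 in the fit, with a median difference of -0.13 in BC and 0.09 in D2, and their list summed to 1255 to 1677 in medium and 1131 to 1884 with SCF. All 8 markers of mature dendritic cells were above 0 (7 after equalizing array medians), with a median of 0.053 and summed levels of 8055 to 8564 in medium and 8106 to 9226 with SCF. Of the 8 conventional dendritic cell markers 7 were above 0 (6 after equalizing array medians), with a median of 0.040. By experiment their median difference was 0.051 (BC), 0.040 (D2), 0.058 (E) and 0.036 (I). In the same order it was 0.13, 0.008, 0.053 and 0.096 for the mature dendritic cell markers. For the 3 tested plasmacytoid dendritic cell markers it was -0.11, -0.03, -0.07 and 0.17. The 2 tested mast cell markers gave -0.03, -0.10, 0.10 and -0.06. No marker passed the adjusted test for SCF. The limma test between experiments, at an adjusted p of 0.05, called 3 of 7 macrophage, 1 of 4 osteoclast and 2 of 2 tested mast cell markers. It called 1 of 8 mature and 0 of 8 conventional dendritic cell markers, against a background of 3.35% of probe sets. The part of these cell types in the lower pump and cathepsin values was not tested.

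**Figure D3:**
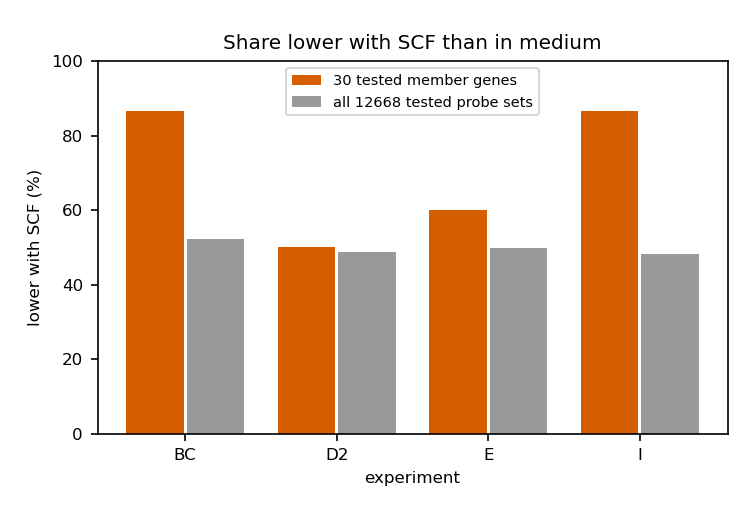
Share of features with a lower value in SCF than in medium (%, y axis) in each experiment (x axis), for the 30 tested genes (orange) and all 12668 tested probe sets (grey). The orange bars reach 86.7% in BC and I and lie close to the grey ones in D2.

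The genes varied between experiments, whatever the treatment, by factors of 1.03 (Atp6v1e2) to 1.35 (Atp6ap2) between the highest and lowest experiment mean. In BC only 6 of the 30 genes were above their own mean over the experiments, against 20 in D2, 22 in E and 11 in I. The median deviation of the 30 genes from that mean was -0.049 (BC), 0.019 (D2), 0.050 (E) and -0.015 (I). Over all tested probe sets it was 0.013, -0.014, 0.0050 and -0.011 in the same order. The limma test for any difference between experiments called 0 of 30 genes at an adjusted p of 0.05, against a background of 3.35% of probe sets. At an unadjusted p under 0.05 there were 7, a share close to the background of 24.2%. They were Atp6v1h (adjusted p = 0.0805), Ctso (0.0846), Atp6v1c1, Atp6v1d, Atp6v1e1, Atp6ap2 and Ctsl. Among them were all 4 genes with an unadjusted p under 0.05 for SCF, but both tests use the residual variance of the same fit. Those 7 were called, of 26 tested, when only probe sets above the 75th percentile of intensity were tested. That share is not far from the background there of 22%. With an intensity trend in the variance 8 were called, Atp6v0d2 being added, where the background was 12.1%. Experiment and array processing cannot be told apart.

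The medium arrays alone differed in the same genes. Atp6v1h, Atp6v1d, Atp6v1c1 and Atp6ap2 were highest in the medium array of D2, and Atp6v1c1 and Atp6ap2 were lowest in that of BC. The cathepsins shared no single order. Ctso was likewise highest in the medium array of D2. Ctsa, Ctsb, Ctsk, Ctss and Ctsz were highest in that of E, and Ctsc, Ctsd, Ctsf, Ctsh and Ctsl in that of I. Ctsc, the activator of granule serine proteases, read 9.65 in I with and without SCF, against 9.43 in the medium array of BC.

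**Figure D4:**
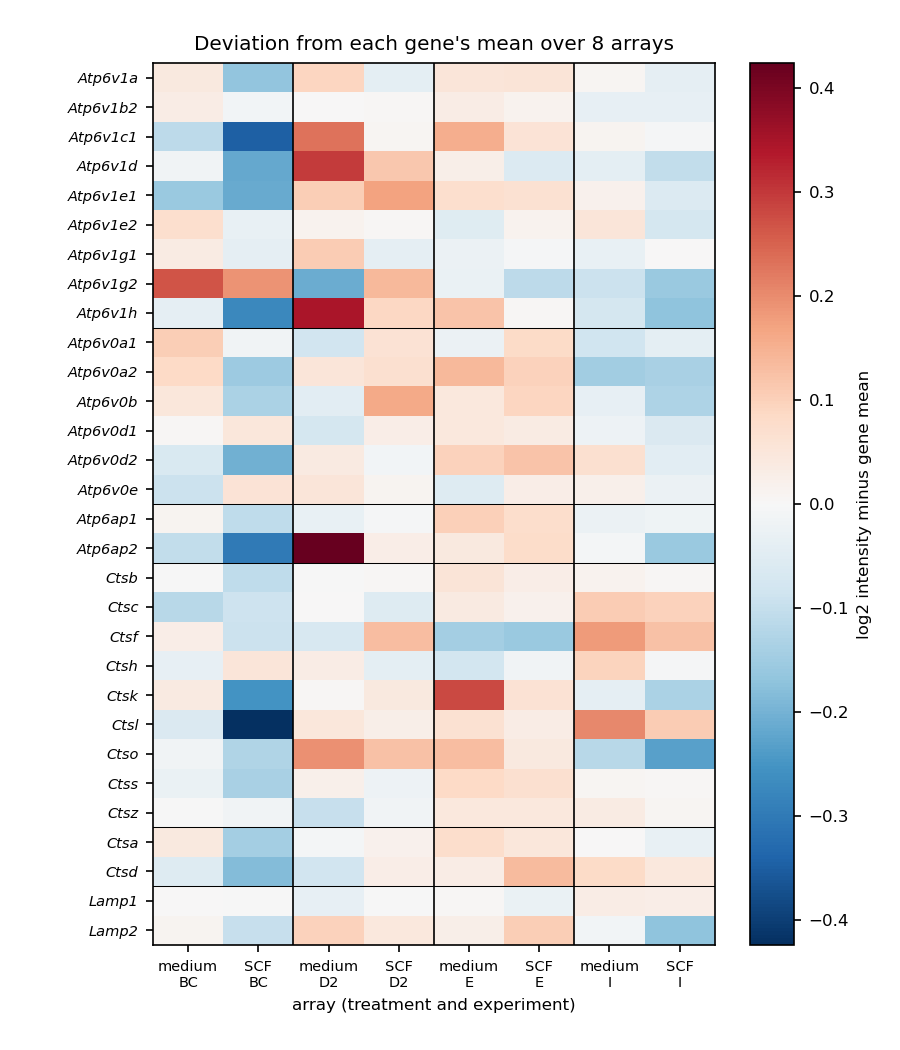
Log2 intensity minus the mean of each gene over the 8 arrays (colour) for the 30 tested genes (rows, split by role) on each array (columns, in pairs by experiment). The SCF array of BC is blue for most rows, with Ctsl lowest, and the medium array of D2 is red for Atp6ap2, Atp6v1h, Atp6v1d and Atp6v1c1.

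Genes that act with the members were read beside them, and none passed the adjusted test for SCF. Of 11 partners and assembly factors of the pump, 9 were below 0. They include Oxr1 (-0.11, SE 0.06, and -0.07 without BC) and Dmxl2 (-0.09, SE 0.06), whose product belongs to the complex that rejoins V1 and V0. Tcirg1, which encodes the a3 subunit of V0 under another name, differed by -0.02 (SE 0.07). It was named after its values were seen, to complete the a subunits.

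In the list of MiT/TFE factors and mTORC1 regulators, 12 of 18 tested genes were below 0, with 1 higher and 2 lower at an unadjusted p under 0.05. Rptor, the substrate-binding subunit of mTORC1, was higher with SCF in all 4 experiments, by 0.10 to 0.17, with a fitted difference of 0.15 (SE 0.05). Fnip1, a partner of folliculin in amino acid sensing at the lysosome, was lower by 0.05 to 0.29, with a fitted difference of -0.17 (SE 0.06). Their limma adjusted p-values were both 0.945. The factors themselves were looked at after their values were seen. Tfeb was below the filter, at 4.02 ± 0.06 in medium, Tfe3 differed by -0.02 (SE 0.05), and Mitf had lower values in every experiment, by 0.06 to 0.25, with an adjusted p of 0.945. Tfec differed by -0.12 (SE 0.07, adjusted p = 0.945), from -0.37 in BC to 0.03 in I, and was the only gene of that list called between experiments, with a limma adjusted p of 0.0361.

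Other lysosomal genes showed small differences of the same size. The genes named from each list are the 2 with its smallest unadjusted p for SCF, so they are not typical of it. Of 28 other hydrolases, 16 were below 0, with a median of -0.014. Asah1 (acid ceramidase) and Galc (galactocerebrosidase) differed by -0.08 (SE 0.06) and -0.07 (SE 0.05), and by -0.13 and -0.04 without E. Of 17 genes for lysosomal membrane proteins and cofactors, 15 were below 0, with a median of -0.036. Ostm1, the partner of the chloride transporter Clcn7, differed by -0.13 (SE 0.05), and Ctns, the cystine exporter, by -0.09 (SE 0.05). Of the 9 genes for mannose 6-phosphate sorting, which delivers new hydrolases to lysosomes, 6 were below 0. Gga3 (0.12, SE 0.06, and 0.07 without BC) and Gnptg (0.09, SE 0.05) were above 0. Among inhibitors of cathepsins, 5 of 9 passed the filter and 3 were above 0 (2 after equalizing array medians). Cst6 (cystatin E/M) differed by 0.13 (SE 0.05), close to the filter at 4.07 ± 0.09 in medium, and Cstb (cystatin B) by 0.05 (SE 0.05), higher in all 4 experiments. The adjusted p-values of these genes were 0.945 or above.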

How the data were processed

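Mouse dendritic cell RNA from 8 samples was measured on 1-colour arrays, and groups and experiments were read from the sample titles. The deposited table holds 1 linear intensity per probe set and array, which the authors computed by RMA, as the submitters' processing notes name it; its version was not given in the sources used here. Log2 was taken with no pseudocount. Of 41345 probe sets, 23521 carried a single gene symbol in the platform annotation, 1814 several and 16010 none. The brightest probe set stood for a gene with several.

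Tests used limma 3.58.1 in R 4.3.3 (lmFit and eBayes, with experiment as a block) on 12668 probe sets, followed by Benjamini-Hochberg adjustment. The fit had 3 residual degrees of freedom, 7.39 after moderation, and a median SE of 0.06; the number of arrays limits the precision. The design text states that each pair of cultures came from the same cells. After removal of group means, arrays of one experiment correlated at 0.46 (BC), 0.41 (D2), 0.42 (E) and 0.36 (I). Scripts were tested on simulated data.

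The members, gene lists and rules were chosen with earlier results of these data known. The named genes were the Lamp genes, Ctsb, Ctsd, Ctsk, Ctsl, Ctss, Ctsg, Atp6v0d1, Atp6v0d2, Atp6ap1 and Atp6ap2. To these were added up to 4 tested genes per role with the smallest unadjusted p for SCF, and every gene with 1 sign in all 4 experiments. From each related list up to 2 tested genes were added, again those with the smallest unadjusted p for SCF. Others were named after their values were seen. The alternatives changed the filter, the normalization, the block, the variance model or the choice of probe set, or left out 1 experiment.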

Additional observations from a re-analysis of the deposited data

Results flagged for a closer look

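In each group of 4 arrays, the gap between the lowest or highest value and its neighbour was set against the whole range, for 46 groups. A gap above the 95% critical value of Dixon's test was found in 2 of them, and chance flags about 1 in 20 groups. Both were the SCF array of experiment BC. For Atp6v1c1, the C subunit of the proton pump, it read 8.28, with the next SCF array at 8.62, a gap of 0.845 of the range. For Ctsl it read 9.30, with the next at 9.75, a gap of 0.847 of the range. Without experiment BC the SCF difference of Ctsl was -0.05, against -0.13 with it.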

How the results depend on the processing

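The SCF comparison called 0 of the tested genes, and 0 of all probe sets, under each of the 12 alternatives. Without the experiment as a block, that is without the pairing of arrays, 0 genes were called and 0 reached an unadjusted p under 0.05, against 4 with the block and 1 with a random block. The block changed no call, and the number of genes above 0, here 7, cannot depend on it in this balanced design. The number of genes above 0 was 14 of 52 with no intensity filter and 4 of 30 with array medians equalized. It ranged from 4 (without D2) to 12 (without I) when 1 experiment was left out. Equalizing also moved the median of all probe sets, to -0.018. Calls between experiments over all probe sets were 194 with no filter, 1396 with a filter at the 75th percentile and 1527 with a variance trend, against 424. They ranged from 40 to 176 with 1 experiment left out. Among the genes described they were 7 of 26 under the stricter filter (background 22%) and 8 of 30 under the trend (background 12.1%), against 0 of 30. The cause was not tested. Of 380 values for 32 named genes, 9 turned in sign and 0 passed the threshold. Ctsd was -0.0081 with array medians equalized. Leaving out 1 experiment moved Ctsd between -0.021 and 0.058, Atp6ap1 between -0.046 and 0.0028, Atp6v0d1 between -0.0023 and 0.045, Atp6v0e between -0.00097 and 0.064, and Lamp1 between -0.012 and 0.0099. Of the 20 tested genes named by the stated rules, 16 moved by over 1.5 times on leaving out 1 experiment, 13 of them without BC. Such a ratio says little where the difference is near 0, as for Lamp1 at -0.00029. Signal over background is unknown, and the median SE of 0.06 from 4 pairs limits what can be seen.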
